A study of Homo sapiens with 6 samples.

Results

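The genes described here are 10 hypoxia-responsive genes outside glycolysis, HIF1A, EGLN1, STC1, BNIP3, BNIP3L, VEGFA, DDIT4, ANGPTL4, NDRG1 and P4HA1. They were taken by gene name from a table of 11314 protein-coding genes, and each of the 10 matched 1 row. The table holds 6 messenger RNA libraries of SNU-668, a human gastric cancer cell line, in a subline grown in DMEM with serum and described as resistant to erastin, a drug that starts iron-dependent cell death by blocking cystine import. According to the treatment text, the cells received a short hairpin RNA against SPIN1, a histone reader, or a control hairpin named NC, and there are 3 libraries under each title. All 6 titles begin with the prefix RLS3, which is not interpreted here. No label mentions low oxygen, a drug dose or a time. The labels also disagree on which libraries are which: the genotype entries give WT for the libraries titled SPIN1 and SPIN1 knockdown for those titled NC, while the design text names ALKBH3 as the target. The titles define the groups here, so that "higher" and "lower" describe titled SPIN1 relative to titled NC. Means are given ± SD with n = 3 libraries per title, and pairs joined by "against" give titled SPIN1 before titled NC.

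Cells sense oxygen mainly through the stability of the HIF alpha subunits. When oxygen is present, the prolyl hydroxylase encoded by EGLN1 marks HIF1A protein for capture by the VHL ubiquitin ligase and for destruction. When oxygen falls, the subunit persists, pairs with ARNT and binds DNA at a short core motif near its target genes, among them genes of blood vessel growth, mitochondrial removal, collagen hydroxylation and growth arrest. Several of these targets also answer to other signals: VEGFA and DDIT4 are also induced by ATF4 in amino acid and endoplasmic reticulum stress, and ANGPTL4 by the lipid-sensing PPAR receptors. Transcription of HIF1A is not the main step that oxygen controls, and no protein was measured here.

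Promoter sequence was searched for 6 of the 10 genes, in RefSeq windows on GRCh38.p14. The promoters of STC1, BNIP3L, NDRG1 and VEGFA were not searched, so nothing is said here about their motifs. The 250 bases before each annotated start were searched for the HIF core motif, spelled ACGTG or GCGTG on either strand, so that CACGT and CACGC also count. The stretches around the matches are shown for BNIP3, P4HA1 and ANGPTL4, which were higher, for EGLN1, which did not pass the test, and for DDIT4, which was lower, because each holds the core motif while their levels differed in direction. Each sequence is read 5′ to 3′ on the strand of its gene, with the core motif in capitals.
BNIP3, chr10:131982003-131982086, minus strand: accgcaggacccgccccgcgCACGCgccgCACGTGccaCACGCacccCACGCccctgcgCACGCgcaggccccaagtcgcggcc
P4HA1, chr10:73096928-73096972, minus strand: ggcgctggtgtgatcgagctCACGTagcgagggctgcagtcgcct
ANGPTL4, chr19:8363905-8363945, plus strand: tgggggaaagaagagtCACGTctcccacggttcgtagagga
EGLN1, chr1:231422288-231422320, minus strand: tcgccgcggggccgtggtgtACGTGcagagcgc
DDIT4, chr10:72273685-72273895, plus strand: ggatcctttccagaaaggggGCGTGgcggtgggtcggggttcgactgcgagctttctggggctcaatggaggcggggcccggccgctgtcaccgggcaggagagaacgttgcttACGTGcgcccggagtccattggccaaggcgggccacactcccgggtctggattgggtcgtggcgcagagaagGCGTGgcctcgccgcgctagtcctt

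BNIP3 carried the densest set, with 6 motif positions between 143 and 104 bases before its start, where the palindrome in the middle counts on both strands and gives a pair of overlapping positions. At least 5 positions were found in 1.36% of all 35116 promoter windows of the same length. DDIT4 carried 3 positions, and at least 3 were found in 7.76% of all windows. P4HA1, ANGPTL4 and EGLN1 each carried 1 position, at 86, 234 and 13 bases before the start, and HIF1A carried 1 in its upstream window and 0 in its other annotated window. At least 1 position was present in 43.2% of all windows, so a single match is common. All 6 searched genes held the motif in at least 1 window, and they include genes that were higher, lower and not past the test. A match is a description of the letters and not evidence of binding.

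Of the 10 genes, 5 were higher (STC1, BNIP3, ANGPTL4, P4HA1 and HIF1A), 2 were lower (VEGFA and DDIT4) and 3 did not pass the test (EGLN1, BNIP3L and NDRG1). Over all 11061 genes tested with limma on log2(FPKM + 1), at a Benjamini-Hochberg adjusted p under 0.05, 17.3% were higher, 10.3% lower and 27.6% called in either direction. FPKM gives the fragments per kilobase of a gene relative to all mapped fragments, a level per length, so different genes can be set side by side. The median log2 difference was 0.67 over the 10 genes and 0.05 over all genes tested. The split of calls by direction depends on the scaling: 1914 genes were higher and 1139 lower (62.7% of calls higher), against 1593 and 1572 (50.3%) after quantile normalization, which kept all 7 calls among the 10 genes. The 5 higher and 2 lower genes were also the ones whose groups did not overlap, where 27.2% of all genes tested lay wholly higher, 18.8% wholly lower and 46.0% in either direction. All 10 passed the filter of a mean of at least 0.5 FPKM over the 6 libraries, but ANGPTL4 did so only through the libraries titled SPIN1, so its presence in the test already required a difference. The counts and the median above include ANGPTL4, but its call and its lack of overlap add nothing to them. The 10 genes were chosen with earlier results of these data known, so the counts are descriptions.

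**Figure D1:**
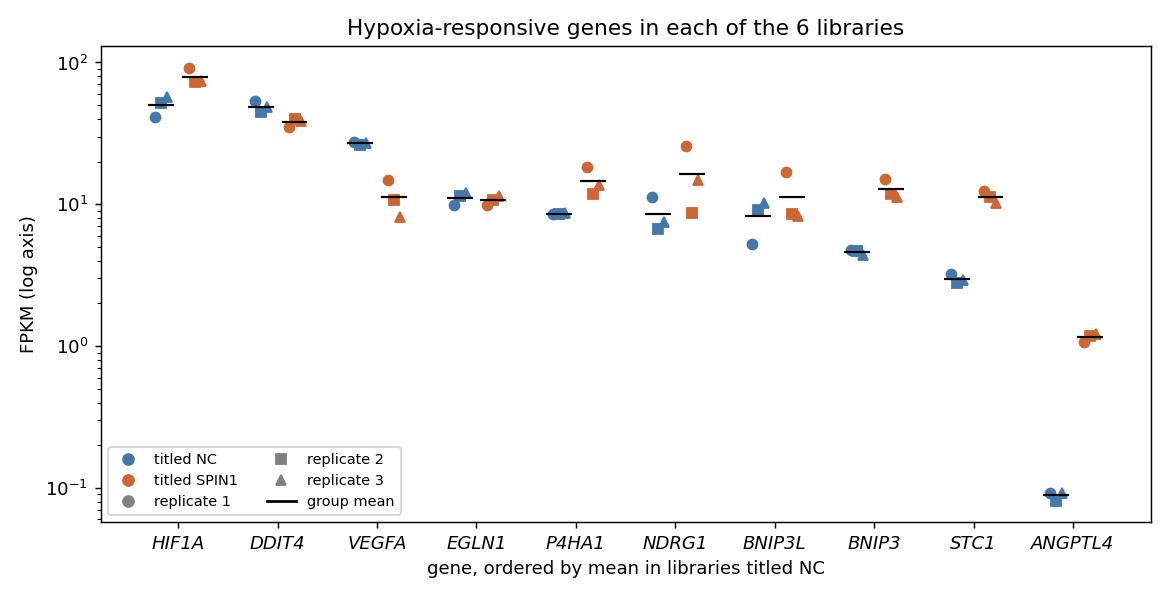
FPKM on a log axis for each gene in each library, with libraries titled NC in blue, libraries titled SPIN1 in orange, a marker shape per replicate number and a black line at each group mean. STC1, BNIP3 and ANGPTL4 stand apart upward and VEGFA downward, while the groups of EGLN1, BNIP3L and NDRG1 overlap.

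The median level per library was 4.91 to 5.12 FPKM under NC and 5.16 to 5.49 FPKM under SPIN1, so the medians separated by title in the direction of the excess of higher calls. Each library had 32.2% to 38.4% of all FPKM on 13 genes of the mitochondrial genome. SPIN1 itself, the labelled target, overlapped between the groups at 0.322, 6.18 and 7.97 FPKM in titled NC replicates 1 to 3 and 0.324, 0.629 and 2.49 FPKM in titled SPIN1 replicates 1 to 3 (limma, adjusted p = 0.307). Titled NC replicate 1 lay close to titled SPIN1 replicate 1, and without it the log2 difference of SPIN1 moved from -1.17 to -2.03 (adjusted p = 0.0301), lower under the SPIN1 title. The other 5 leave-one-out fits of SPIN1 did not pass (limma, adjusted p up to 0.601). With all libraries the level of SPIN1 does not check the labels. Of 5 epithelial markers, KRT8 and KRT18 were abundant, at 24.5 to 149 FPKM, EPCAM was at 0.31 to 1.44 FPKM, and CDH1 and KRT19 were not analysed here. Of 5 markers each, 3 had values for fibroblasts, 2 for leukocytes and 1 for endothelium, among them COL3A1 at 166 to 249 FPKM, CD68 at 78.8 to 156 FPKM and CDH5 at 0.35 to 1.73 FPKM. Some moved with the titles. KRT8 and KRT18 were higher (limma, adjusted p = 0.0153 and 0.0399), with KRT8 missing the threshold in 1 and KRT18 in 5 of 6 leave-one-out fits, and the 3 epithelial markers summed to 95.4 to 114 FPKM under NC and 140 to 241 under SPIN1. LUM and DCN were higher (limma, adjusted p = 0.00506 and 0.00902) and CD14 was lower (0.0116), with the summed level of the 3 fibroblast markers at 176 to 202 FPKM under NC and 182 to 261 under SPIN1, and of the 2 leukocyte markers at 168 to 181 and 91.0 to 156 FPKM. Their part in the results was not tested. In bulk RNA, fewer cells of a kind and less RNA per cell cannot be told apart, and separate cultures are not mentioned in the labels, so each p-value speaks only of the spread among these libraries, possibly a technical one.

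HIF1A, the oxygen-regulated alpha subunit (ENSG00000100644.16_3, hg19 chromosome 14, 62162231 to 62214977, plus strand), was the most abundant of the 10 genes under both titles. It stood at 41.4, 52.2 and 57.3 FPKM in titled NC replicates 1 to 3 and at 92.0, 72.6 and 74.1 FPKM in titled SPIN1 replicates 1 to 3. Every library titled SPIN1 was above every library titled NC, with group means of 79.6 ± 10.8 and 50.3 ± 8.10 FPKM, 1.58-fold apart. The log2 difference was 0.66 (95% interval 0.29 to 1.02, limma, adjusted p = 0.0206), and of the 6 leave-one-out fits the one without titled NC replicate 2 missed the threshold (difference 0.69, adjusted p = 0.0553).

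EGLN1, the main oxygen-sensing prolyl hydroxylase and itself a HIF target (ENSG00000135766.8_2, hg19 chromosome 1, 231499497 to 231560790, minus strand), did not follow. Its levels were 9.84, 11.5 and 12.0 FPKM in titled NC replicates 1 to 3 against 9.95, 10.8 and 11.4 FPKM in titled SPIN1 replicates 1 to 3. The ranges lay on top of each other, and the log2 difference of -0.04 had a 95% interval of -0.30 to 0.22 (limma, adjusted p = 0.794). The level of HIF1A over that of EGLN1 within a library was 4.51 ± 0.286 under NC and 7.49 ± 1.53 under SPIN1, without overlap.

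The other parts of the oxygen-sensing machinery moved in both directions. Besides HIF1A and EGLN1, 16 genes of this list were tested, with 3 higher (18.75%), 5 lower (31.25%) and 8 that did not pass. Over all genes tested 17.3% were higher and 10.3% lower. The median log2 difference of the 16 was -0.07. ELOC and ELOB, the elongin subunits that join VHL to its ligase, were higher, as was the ligase subunit RBX1. The lower genes were CITED2, SIAH1, CREBBP, EP300 and P4HTM. CITED2, a HIF target whose protein competes with HIF1A for the coactivators encoded by CREBBP and EP300, was at 7.57 ± 0.266 against 15.9 ± 0.942 FPKM (limma, adjusted p = 0.000966). CREBBP was at 3.22 ± 0.645 against 5.42 ± 0.172 FPKM, SIAH1, a ligase that can degrade prolyl hydroxylases, at 3.61 ± 0.136 against 5.36 ± 0.311 FPKM, and ELOC at 22.8 ± 4.18 against 13.4 ± 2.51 FPKM. Apart from CITED2, each of these 8 genes missed the threshold in 2 to 6 of the 6 leave-one-out fits.

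ARNT, the partner of HIF1A, was at 4.31 ± 0.498 against 5.41 ± 0.300 FPKM and did not pass the test (limma, adjusted p = 0.111), and neither did VHL, at 3.12 ± 0.395 against 3.35 ± 0.337 FPKM (adjusted p = 0.665). The ratio of HIF1A to ARNT was 18.6 ± 2.86 under SPIN1 and 9.27 ± 1.14 under NC, without overlap. That ratio leaves out the related gene ARNT2 of the same list, which was more abundant than ARNT. ARNT2 was at 10.3 ± 2.51 against 13.6 ± 0.590 FPKM and did not pass (limma, adjusted p = 0.141). EPAS1, which encodes the related alpha subunit HIF-2 alpha, stood at 57.1, 66.6 and 23.1 FPKM in titled SPIN1 replicates 1 to 3 and at 27.6, 30.6 and 34.4 FPKM in titled NC replicates 1 to 3. Titled SPIN1 replicate 3 lay below all libraries titled NC and the other libraries titled SPIN1 above them (limma, adjusted p = 0.352), and without that library the log2 difference of EPAS1 was 0.98 (adjusted p = 0.00841). The other 5 leave-one-out fits of EPAS1 did not pass (limma, adjusted p up to 0.695). The prolyl hydroxylase gene EGLN2 was at 11.9 ± 1.15 against 12.4 ± 0.991 FPKM (limma, adjusted p = 0.720).

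STC1, a secreted glycoprotein first known for calcium control in fish, had the largest log2 difference of the 10 genes with a pseudocount of 1, behind ANGPTL4 at smaller ones (ENSG00000159167.11_2, hg19 chromosome 8, 23699428 to 23712320, minus strand). It was at 3.21, 2.78 and 2.90 FPKM in titled NC replicates 1 to 3 and at 12.4, 11.2 and 10.1 FPKM in titled SPIN1 replicates 1 to 3. The groups lay far apart relative to their spread, at 11.3 ± 1.12 against 2.97 ± 0.223 FPKM, 3.79-fold higher. The log2 difference was 1.62 (95% interval 1.36 to 1.89, limma, adjusted p = 0.000558). Its paralog STC2, a secreted protein induced in endoplasmic reticulum stress, was at 2.14 ± 0.220 against 1.88 ± 0.164 FPKM and did not pass the test (limma, adjusted p = 0.415). The level of STC1 over that of STC2 was 5.31 ± 0.990 under SPIN1 and 1.59 ± 0.262 under NC.

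ANGPTL4, a secreted inhibitor of lipoprotein lipase, had the largest fold of mean FPKM, 13.1-fold, at the lowest level of the 10 genes (ENSG00000167772.11_3, hg19 chromosome 19, 8428173 to 8439257, plus strand). It was at 0.0921, 0.0813 and 0.0924 FPKM in titled NC replicates 1 to 3 and at 1.07, 1.18 and 1.23 FPKM in titled SPIN1 replicates 1 to 3. The replicates were close to each other within both groups, but the depth behind such low values is unknown. The log2 difference was 0.99 with a pseudocount of 1 (SE 0.07, limma, adjusted p = 0.000629). It was 3.57 with a pseudocount of 0.01, since a pseudocount of 1 is large beside these levels. Because ANGPTL4 was tested only through its level under SPIN1, the call adds nothing to the values themselves.

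ANGPTL4 is shared between the hypoxic response and the PPAR response, and a list of PPAR-responsive genes and receptors was therefore counted beside it. Limma called 4 of its 11 tested genes higher and 0 lower (6 and 0 at an unadjusted p under 0.05), with a median log2 difference of 0.34. CPT1A, the gate of mitochondrial fatty acid import, was at 45.2 ± 5.30 against 15.5 ± 1.04 FPKM (limma, adjusted p = 0.000629). PLIN2, a coat protein of lipid droplets, was 3.15-fold higher at 107 ± 17.6 against 33.8 ± 1.97 FPKM. The fatty acid binding protein gene FABP4 was at 255 ± 17.4 against 129 ± 17.0 FPKM. PDK4, which restrains pyruvate oxidation, was at 12.8 ± 5.30 against 4.59 ± 0.912 FPKM, and leaving out 1 library removed this call in 5 of 6 cases (highest adjusted p = 0.104).

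VEGFA, the principal growth factor for blood vessels (ENSG00000112715.21_4, hg19 chromosome 6, 43737921 to 43754224, plus strand), was lower. Titled NC replicates 1 to 3 held 27.7, 26.1 and 27.0 FPKM, and titled SPIN1 replicates 1 to 3 held 14.9, 10.7 and 8.13 FPKM. The libraries titled NC were tight and those titled SPIN1 were spread out, with no overlap, at 26.9 ± 0.781 and 11.2 ± 3.44 FPKM, 2.40-fold apart. The log2 difference was -1.23 (95% interval -1.70 to -0.76, limma, adjusted p = 0.00596), opposite in sign to that of HIF1A.

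Among the relatives of VEGFA, 4 further ligand and receptor genes were tested, and 0 passed limma's test at the adjusted threshold in either direction. Over all genes tested 27.6% passed. Of the 4 genes, 1 had an unadjusted p under 0.05, NRP1, with the higher mean under SPIN1. The ligand gene VEGFB was at 47.2 ± 4.54 against 55.0 ± 7.42 FPKM (limma, adjusted p = 0.245). VEGFC, a ligand of lymphatic vessels, was at 1.30 ± 0.357 against 1.37 ± 0.0950 FPKM (adjusted p = 0.809). VEGFA over VEGFB was 0.241 ± 0.0857 under SPIN1 and 0.494 ± 0.0544 under NC, without overlap. The coreceptor gene NRP1 was at 1.24, 3.43 and 5.49 FPKM in titled SPIN1 replicates 1 to 3, all above its 0.838 ± 0.0534 FPKM under NC, and did not pass (limma, adjusted p = 0.0634). Without titled SPIN1 replicate 1 it passed, with a log2 difference of 1.54 (adjusted p = 0.00358). The other 5 leave-one-out fits of NRP1 did not pass (limma, adjusted p up to 0.154).

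DDIT4, also called REDD1, holds the growth kinase complex mTORC1 in check under hypoxia and other stress (ENSG00000168209.4_2, hg19 chromosome 10, 74033678 to 74035794, plus strand). It was at 53.5, 44.6 and 48.6 FPKM in titled NC replicates 1 to 3 and at 35.1, 39.7 and 38.9 FPKM in titled SPIN1 replicates 1 to 3. The groups did not overlap, but the gap between the nearest libraries was small. The group means were 37.9 ± 2.48 and 48.9 ± 4.42 FPKM, and the log2 difference was -0.36 (95% interval -0.60 to -0.12, limma, adjusted p = 0.0401). Leaving out any of the 6 libraries removed this call (adjusted p from 0.0618 to 0.107).

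Of the 14 further genes of the mTORC1 list, limma called 2 lower (14.3%) and 0 higher (2 lower and 2 higher at an unadjusted p under 0.05). Over all genes tested 10.3% were lower and 17.3% higher. The 2 lower genes of the list, EIF4EBP1 and SESN2, differed more than DDIT4, and both are known ATF4 targets. A part of ATF4 in these differences was not tested. EIF4EBP1, a translation repressor that mTORC1 inactivates, was at 40.9 ± 3.87 against 137 ± 18.8 FPKM (limma, adjusted p = 0.000628). SESN2, a leucine sensor that inhibits mTORC1, was at 8.22, 2.95 and 2.55 FPKM in titled SPIN1 replicates 1 to 3 against 22.1 ± 0.909 FPKM under NC (limma, adjusted p = 0.00667). DDIT4L, the paralog of DDIT4, was at 6.33 ± 1.24 against 7.44 ± 1.07 FPKM with overlapping groups (limma, adjusted p = 0.386).

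**Figure D2:**
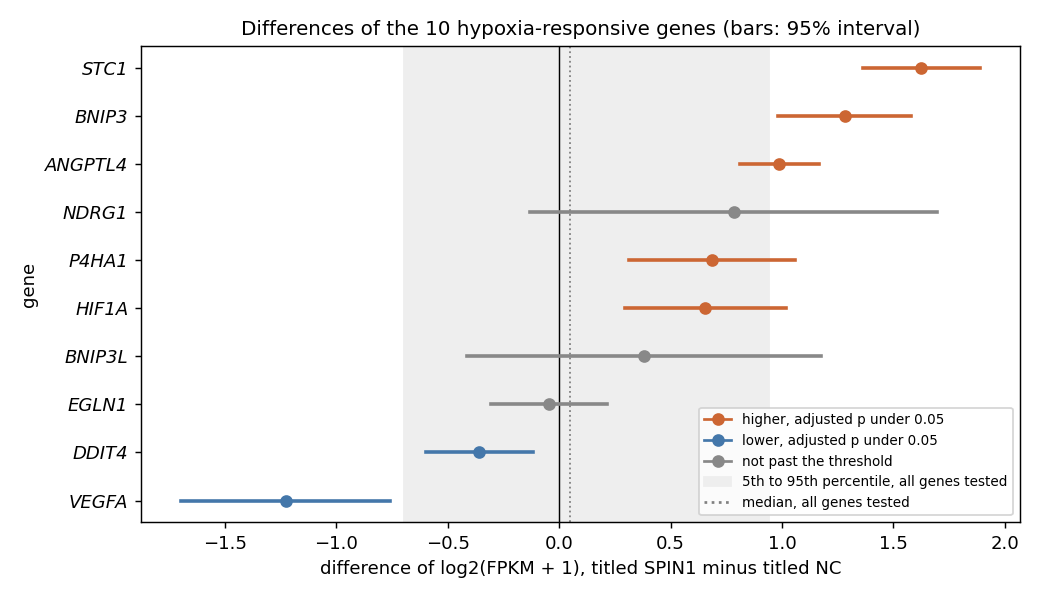
Difference of log2(FPKM + 1), titled SPIN1 minus titled NC, for each of the 10 genes with its 95% interval from limma, over a grey band from the 5th to the 95th percentile of all genes tested. STC1, BNIP3 and ANGPTL4 lie above the band (its upper edge is 0.94) and VEGFA below it (lower edge -0.69), while the intervals of NDRG1, BNIP3L and EGLN1 include 0.

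BNIP3 and BNIP3L are close relatives that sit in the outer mitochondrial membrane and recruit the autophagy machinery, so that mitochondria are removed when oxygen is low. BNIP3 (ENSG00000176171.11_2, hg19 chromosome 10, 133779959 to 133795517, minus strand) was at 4.74, 4.66 and 4.42 FPKM in titled NC replicates 1 to 3 and at 15.0, 11.8 and 11.3 FPKM in titled SPIN1 replicates 1 to 3. The groups were well separated, at 12.7 ± 1.99 against 4.61 ± 0.167 FPKM, 2.76-fold higher. Its log2 difference was 1.28 (95% interval 0.98 to 1.58, limma, adjusted p = 0.00108).

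BNIP3L, also called NIX (ENSG00000104765.15_3, hg19 chromosome 8, 26240414 to 26363152, plus strand), lay at 5.23, 9.15 and 10.3 FPKM in titled NC replicates 1 to 3 and at 16.8, 8.51 and 8.27 FPKM in titled SPIN1 replicates 1 to 3. The lowest and the highest library of all 6 both carry the number 1, and the other 4 lay between 8.27 and 10.3 FPKM. Its log2 difference of 0.38 did not pass (95% interval -0.41 to 1.18, limma, adjusted p = 0.435). With both libraries numbered 1 left out it was -0.19 (adjusted p = 0.221), and with weights per library 0.00 (adjusted p = 0.997). PNMA2 overlaps this locus on the other strand at a mean of 0.460 FPKM. The level of BNIP3 over that of BNIP3L was 1.22 ± 0.283 under SPIN1 and 0.616 ± 0.256 under NC, with overlapping groups.

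Of the 18 further genes of the mitophagy list, 2 passed as higher (11.1%), 4 as lower (22.2%) and 12 in neither direction. Over all genes tested 17.3% were higher and 10.3% lower. The median log2 difference of the 18 was -0.07. The higher genes were PINK1, the kinase that marks damaged mitochondria, at 45.9 ± 1.60 against 33.6 ± 2.05 FPKM (limma, adjusted p = 0.0109), and OPTN, an autophagy receptor gene, at 12.5 ± 1.33 against 8.52 ± 0.616 FPKM. Among the lower genes, BCL2L13, another mitophagy receptor of the outer membrane, was at 4.53 ± 0.229 against 7.87 ± 0.161 FPKM (limma, adjusted p = 0.00309). MAP1LC3B, the autophagosome protein that such receptors bind, was at 17.2 ± 1.10 against 27.4 ± 1.22 FPKM (adjusted p = 0.00363), and the other lower genes were CALCOCO2 and GABARAPL1. In the 6 leave-one-out fits OPTN missed the threshold in 2, CALCOCO2 in 4 and GABARAPL1 in 5.

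P4HA1, a catalytic subunit of the enzyme that hydroxylates collagen prolines (ENSG00000122884.12_2, hg19 chromosome 10, 74766975 to 74856732, minus strand), was higher. It was at 8.50, 8.55 and 8.72 FPKM in titled NC replicates 1 to 3 and at 18.3, 11.9 and 13.7 FPKM in titled SPIN1 replicates 1 to 3. The libraries titled NC were nearly equal, and each library titled SPIN1 lay above them by a different amount. P4HA1 had a log2 difference of 0.68 (95% interval 0.31 to 1.06, limma, adjusted p = 0.0198), and it was no longer called when any 1 library titled NC was left out (adjusted p from 0.0566 to 0.0653).

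P4HA2, a further catalytic subunit and also hypoxia-inducible, was at 7.48 ± 1.41 against 4.70 ± 0.452 FPKM (limma, adjusted p = 0.0291). It missed the threshold in 4 of 6 leave-one-out fits. The level of P4HA1 over that of P4HA2 was 1.95 ± 0.220 under SPIN1 and 1.84 ± 0.205 under NC, with overlapping groups. P4HA3 was at 17.0 ± 2.89 against 11.8 ± 3.17 FPKM (limma, adjusted p = 0.129). Counting P4HA2, 12 further genes of collagen hydroxylation and folding were tested, and 3 passed as higher (25%), 3 as lower (25%) and 6 in neither direction. Over all genes tested 17.3% were higher and 10.3% lower. The lysyl hydroxylase genes went both ways: PLOD2 was at 31.3 ± 1.86 against 17.0 ± 0.757 FPKM (limma, adjusted p = 0.00135), PLOD1 was at 17.1 ± 0.0386 against 12.3 ± 0.617 FPKM, and PLOD3 was among the lower genes. The prolyl 3-hydroxylase gene P3H2 was at 4.09 ± 1.14 against 9.15 ± 0.541 FPKM (limma, adjusted p = 0.00832). PPIB, a proline isomerase of the endoplasmic reticulum, was also lower, at 197 ± 25.8 against 279 ± 3.95 FPKM.

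NDRG1, a stress-induced protein linked to differentiation and lipid traffic (ENSG00000104419.14_4, hg19 chromosome 8, 134249414 to 134314265, minus strand), varied widely within groups. It was at 11.3, 6.70 and 7.54 FPKM in titled NC replicates 1 to 3 and at 25.8, 8.73 and 14.8 FPKM in titled SPIN1 replicates 1 to 3. Titled SPIN1 replicate 2 lay below titled NC replicate 1, so the groups overlapped, and the standard deviation was 52.8% of the mean under SPIN1 and 28.8% under NC. NDRG1 had a log2 difference of 0.78 (95% interval -0.13 to 1.69, limma, adjusted p = 0.176), which was 0.41 without titled SPIN1 replicate 1 (adjusted p = 0.345). Its paralog NDRG3, whose protein is itself destabilised by oxygen, was higher, with 32.3 ± 3.40 against 17.8 ± 1.75 FPKM (limma, adjusted p = 0.00393). The paralog NDRG2 was at 1.99 ± 0.627 against 1.04 ± 0.131 FPKM (adjusted p = 0.0483), and it missed the threshold in 5 of 6 leave-one-out fits. Over the 10 tested paralogs of the genes described here, limma called 3 higher (30%), P4HA2, NDRG3 and NDRG2, with a median log2 difference of 0.32. It called 0 lower (0 lower also at an unadjusted p under 0.05). Over all genes tested 17.3% were higher and 10.3% lower.

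The spread within the groups was not shared evenly among the libraries. Titled SPIN1 replicate 1 had the highest level of the libraries titled SPIN1 in 7 of the 10 genes (HIF1A, STC1, BNIP3, BNIP3L, VEGFA, NDRG1 and P4HA1), a position it held in 32.6% of all genes tested. For VEGFA, which was lower, this placed it nearest to the libraries titled NC. Titled NC replicate 2 was the highest of its group in 0 of the 10 genes and in 23.9% of all genes tested. Without titled SPIN1 replicate 1, STC1, BNIP3, ANGPTL4, P4HA1 and HIF1A were still higher and VEGFA still lower, and DDIT4 no longer passed.

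**Figure D3:**
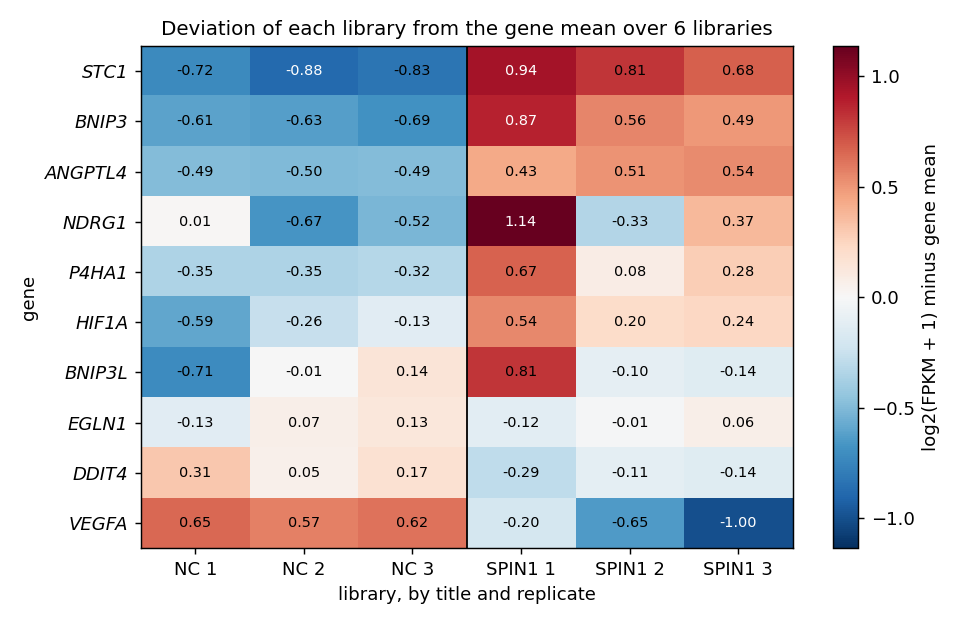
Deviation of log2(FPKM + 1) from the mean over the 6 libraries for each gene (rows) and library (columns), in red above and blue below the mean. Titled SPIN1 replicate 1 holds the highest value of NDRG1 (1.14) and BNIP3L (0.81), while STC1, BNIP3 and ANGPTL4 split cleanly by title.

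The order of the genes by level differed between the titles. Under NC, HIF1A (50.3 FPKM) and DDIT4 (48.9 FPKM) led with overlapping ranges, followed by VEGFA at 26.9 FPKM and then by EGLN1, and ANGPTL4 came last. Under SPIN1, HIF1A (79.6 FPKM) stood clear of DDIT4 (37.9 FPKM), and the following 7 genes, from NDRG1 at 16.4 FPKM to EGLN1 at 10.7 FPKM, each had a range overlapping that of the next. VEGFA ranked 3 of the 10 under NC and 7 under SPIN1. EGLN1 ranked 4 under NC and 9 under SPIN1, although its own means were 11.1 and 10.7 FPKM.

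A wider list of hypoxia-responsive genes outside glycolysis, without the 10, had more genes called higher than lower. Of 37 genes listed, 31 had values and 28 were tested, and 10 passed as higher (35.7%), 2 as lower (7.14%) and 16 in neither direction. Over all genes tested these shares were 17.3% higher and 10.3% lower. The list was chosen with earlier results of these data known, so its shares are descriptions. The 35.7% includes HILPDA, which is treated below. The median log2 difference of the 28, with HILPDA and CA9 among them, was 0.30. FAM162A, a mitochondrial protein induced by HIF1A, was at 11.5 ± 1.43 against 4.83 ± 0.439 FPKM (limma, adjusted p = 0.00161), while PLOD2, described above, was also among them. P4HA2, PLOD1, PLOD2, STC2 and CITED2 also belong to lists described above. HILPDA, a lipid droplet protein that inhibits fat breakdown, was at 1.65 ± 0.402 against 0.376 ± 0.0747 FPKM. Like ANGPTL4, HILPDA was tested only because its level under SPIN1 was high. Its presence in the test already required a difference, so its call adds nothing to the count. The other genes passing as higher were ERO1A, EDN1, CA12, PLOD1, P4HA2, GBE1 and ANKRD37. ERO1A was at 16.4 ± 2.57 against 8.17 ± 0.362 FPKM and EDN1 at 8.68 ± 2.47 against 3.04 ± 0.746 FPKM. CA12 was at 4.57 ± 1.22 against 2.23 ± 0.274 FPKM. In the 6 leave-one-out fits PLOD1 missed the threshold in 1, CA12 in 2, P4HA2 in 4, and GBE1 and ANKRD37 in 5 each.

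The lower genes of the wider list were CITED2 and the transcription factor gene MAFF. MAFF missed the threshold in 5 of 6 leave-one-out fits. CA9, the carbonic anhydrase widely used as a hypoxia marker, was at 1.99, 0.63 and 0.22 FPKM in titled SPIN1 replicates 1 to 3 against 0.468 ± 0.156 FPKM under NC (limma, adjusted p = 0.504). It too reached the filter of 0.5 FPKM only through the libraries titled SPIN1. ADM, the vasodilator adrenomedullin, was at 32.4 ± 5.88 against 31.4 ± 4.56 FPKM, with a log2 difference of 0.04 (SE 0.16, limma, adjusted p = 0.869) whose sign turned under other scalings. CA9 and ADM, and above ERO1A, EDN1 and CA12, were named after their values were seen. Listed genes left out of the test by their low mean were VLDLR, at 0.124 ± 0.0392 against 0.679 ± 0.135 FPKM, NDUFA4L2, at 0.0499 ± 0.0258 against 0.771 ± 0.318 FPKM, and CXCR4, at 0.703 ± 0.367 against 0.246 ± 0.0968 FPKM. Leaving out titled NC replicate 1 or titled NC replicate 2 gave 6 higher genes on the wider list. Median scaling, quantile normalization and rescaling without mitochondrial genes each gave 8 higher genes. Without the filter on low values, 4 genes of this list were lower.

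**Figure D4:**
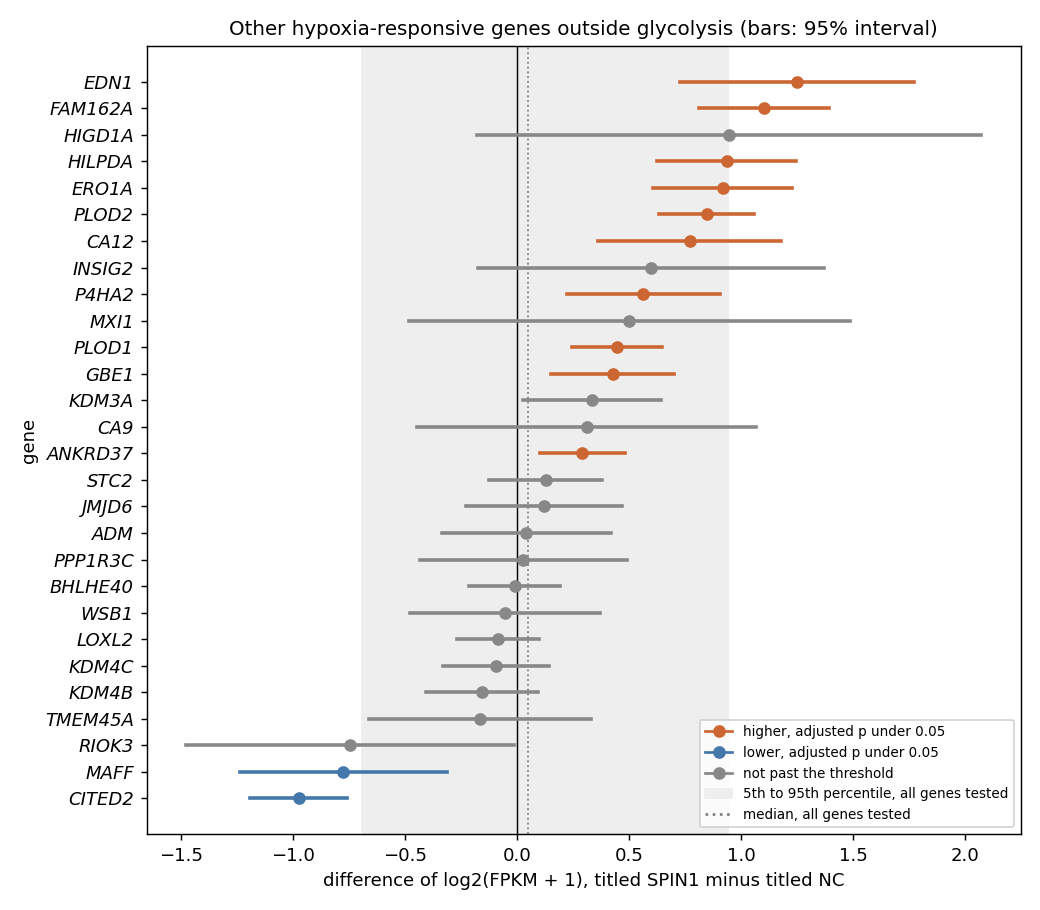
Difference of log2(FPKM + 1), titled SPIN1 minus titled NC, with 95% intervals for the 28 tested genes of the wider hypoxia list, coloured by the limma call, over a grey band from the 5th to the 95th percentile of all genes tested. EDN1 (1.25) and FAM162A (1.10) have the largest differences and lie above the band, CITED2 has the lowest difference (-0.98), and ADM lies near 0.

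For each called gene, the gene with the most similar pattern was sought among 8575 others with a mean of at least 2 FPKM, by the root mean square difference of the 6 centred log2 values. The nearest to HIF1A was the phosphatase inhibitor gene PPP1R2 at 0.071, where the median over all candidates was 0.412. STC1 lay nearest to the carbonic anhydrase gene CA2 (0.077), BNIP3 to the RNA polymerase III subunit gene POLR3K (0.068) and P4HA1 to LSS (0.059), which encodes lanosterol synthase. ANGPTL4 lay nearest to the glycolytic enzyme gene PGAM1 (0.022), which was at 87.1 to 90.2 FPKM under NC and 175 to 183 FPKM under SPIN1. That match rests on the pseudocount of 1: the mean FPKM of ANGPTL4 differed 13.1-fold, while that of PGAM1 differed by a log2 of 1.02, so their folds were not alike. The lower genes VEGFA and DDIT4 lay nearest to the adaptor gene SHC2 (0.096) and the mRNA export gene NXF1 (0.025). Genes with an equal difference of log2(FPKM + 1) between the titles lie near each other on this measure.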

How the data were processed

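RNA was enriched for poly(A) transcripts and made into strand-specific libraries by the dUTP method, per the labels' protocols. Per the submitters' processing notes, the tools were FastQC, cutadapt, HISAT2 and StringTie, and the build was hg19. The authors deposited 1 FPKM value for each gene and library, and their file headers state that unit. No step of whole reads was found among values under 0.15 FPKM (at most 4 of up to 35 log2 ratios lay within 0.02), so depth is unknown and precision rests on the spread of 3 libraries.

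After removal of genes whose mean was under 0.5 FPKM, 11061 were fitted with limma 3.58.1 in R 4.3.3 on log2(FPKM + 1), with trend and robust moderation (statmod 1.5.0), and adjusted over all genes tested. This scale understates differences of low genes. A two-sided exact permutation test cannot go below p = 0.1 here. The 10 genes and all lists were chosen with earlier results of these data known; 1 gene of the wider hypoxia list is not reported here. Named were all 10 genes, SPIN1, up to 4 called genes per list with the smallest adjusted p (the 2 most abundant where 0 were called), paralogs, and nearest patterns. ARNT, ARNT2, VHL, CA9, ADM, ERO1A, EDN1, CA12, GBE1, ANKRD37, cell markers and names that complete small counts were picked with their values in view. Ratios were computed for 11 gene pairs chosen after seeing values, as descriptions. Alternatives changed the pseudocount, filter, scaling, moderation, library weights, replicate block and libraries used. The code was tested on simulated data. Figures used matplotlib 3.10.9 in Python 3.11.15.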

Additional observations from a re-analysis of the deposited data

How the results depend on the processing

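STC1, BNIP3 and VEGFA kept their direction and their call in all 17 alternatives. ANGPTL4 was called in the 16 in which it was tested, since a mean of at least 2 FPKM leaves it out. It passed the filter of 0.5 FPKM only through the libraries titled SPIN1, so its calls under that filter add nothing. With 1 library left out, 1128 to 2045 genes were called higher (1914 with all 6) and 641 to 1251 lower (1139), the lowest counts without titled NC replicate 2. Among the 10 genes the counts then ran from 3 to 5 higher, the lowest also without titled NC replicate 2, and 1 lower in each fit, DDIT4 being lost. The wider hypoxia list gave 6 to 10 higher and 1 to 2 lower, with 4 lower when low values were not filtered. Weights per library raised the calls to 3106 higher and 2304 lower. Log2 differences over the fits without 1 library were 0.53 to 0.75 for HIF1A, -0.12 to 0.0097 for EGLN1, -0.42 to -0.29 for DDIT4, 0.52 to 0.81 for P4HA1, -0.13 to 0.0038 for EGLN2, -0.16 to 0.071 for VEGFC, -0.051 to 0.59 for CA9 and -0.10 to 0.15 for ADM. With both libraries numbered 1 left out, BNIP3L turned to -0.19, VEGFC to 0.059, and DDIT4 was -0.24 without passing, leaving 1 of the 10 genes lower. ADM turned to -0.032 under median scaling, -0.030 under quantile normalization, -0.034 with weights per library and -0.0085 when rescaled without mitochondrial genes. The cause of these changes was not tested.

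Replicate numbers recur under both titles, but deviations of same-numbered libraries correlated at 0.2375, 0.0598 and 0.1632 over 8584 genes, so the numbers were not taken to pair the libraries, and number 2 matched number 3 best. With the replicate block, 2048 genes were higher and 1251 lower. HIF1A at 0.66 (limma adjusted p = 0.0634) and DDIT4 at -0.36 (0.0722) no longer passed, leaving 1 of the 10 genes lower, and NDRG1 at 0.78 (0.0419) passed. FPKM without counts gives no depth, which limits statements on genes near 0 such as ANGPTL4 under NC.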
